A study of Rattus norvegicus with 16 samples.

Results

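Expression of 10 genes of the heat shock response and of the small chaperones was followed in PCCl3 rat thyroid follicular cells after silencing of *Pax8*. The genes were *Cryab*, *Hspb1*, *Hspb8*, *Hspa1b*, *Hspa8*, *Hsp90aa1*, *Hsph1*, *Hspd1*, *Dnaja1* and *Ppid*. They were chosen by name, with the log2 ratios of the same arrays already known, and *Cryab* and *Ppid* were selected because they stood out there. Their ratios below are therefore a description. No p is given for them, and the counts of members past the threshold of the fit are given beside the share of all genes and carry no weight as a test. Of the 10 genes, 9 were found among the 8899 genes that could be named on the array, with 19 probes between them. No probe was matched to *Hspa1b*, which was not analysed here.

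PCCl3 is a line of rat thyroid follicular cells that depends on thyrotropin for growth. Cells transfected with an siRNA against *Pax8*, the paired-box factor that drives thyroid-specific genes (si*Pax8*, 10 ng/ml with Lipofectamine), were compared with wild type cells (wt) on 8 arrays, and with cells given a scrambled siRNA (siScramble) in the same way on 8 others. There were 4 biological replicates per comparison, and a dye-swapped pair of rat whole genome 2-colour arrays was run for each. RNA was isolated 48 h after transfection. The labels call the untransfected condition wild type, whereas the study's methods speak of cells that received the lipid alone, so that what the wt cells were exposed to is not settled. Both comparisons used si*Pax8* cells, and the study describes 4 biological replicates in each. Whether the si*Pax8* samples were the same ones is not settled, so the comparisons cannot be taken as independent of each other. All values are log2 ratios of si*Pax8* over control, averaged over the dye swap, whereas the ratio table that the authors deposited runs the other way.

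The siRNA target itself was below 0 in every replicate. The log2 ratio of *Pax8* over wt was -0.84, -0.57, -0.59 and -0.26 in replicates 1 to 4, a mean of -0.56 ± 0.24 (SD, n = 4; limma adjusted p = 0.000475). Over siScramble it was -0.58, -0.29, -0.12 and -0.01, a mean of -0.25 ± 0.25 (SD, n = 4; limma adjusted p = 0.143), which did not pass the threshold of 0.005 used throughout. Replicate 4 was the weakest in both comparisons. Of the 8 markers of the thyroid follicular cell that were measured, all were above background on every array. Of these 8, 7 had fallen over wt, *Pax8* itself among them, beside 9.45% of all named genes. Over siScramble 1 had fallen, the thyroglobulin gene *Tg*, beside 1.31%. Of 10 probes for other cell types, 7 were not well above background on any array. These were the probes of *Dcn*, *Lum*, *Col3a1*, *Pecam1*, *Pth* and *Ckm*, and probe A_44_P106221 of *Calca*. The others were probe A_43_P11924 of *Calca* and those of *Cd68* and *Des*. *Cd68*, a macrophage marker, was higher over wt (0.30, limma adjusted p = 0.0008) and *Des*, the muscle gene of desmin, lower (-0.15, limma adjusted p = 0.00392), neither of them over siScramble (0.00 and -0.03), and their part in the results below was not tested. Between 52.0% and 60.8% of spots per array and channel were well above background. The number of arrays limits the precision.

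Heat shock proteins are molecular chaperones that bind unfolded polypeptides. The small ones, such as alphaB-crystallin (*Cryab*) and Hsp27 (*Hspb1*), hold unfolded proteins without using ATP, and the Hsp70 machine refolds them with the help of J-domain proteins, which deliver clients, and of nucleotide exchange factors. Hsp90 completes the folding of kinases and steroid receptors together with co-chaperones such as the immunophilin encoded by *Ppid*, and Hsp60 (*Hspd1*) folds proteins in mitochondria. Many of these genes are induced together by heat shock factor 1, which binds heat shock elements, that is, repeats of a short unit in alternating orientation near the start of the gene.

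The promoters of the members show how far they share this element. RefSeq promoter windows of 300 bases (250 before to 50 after the gene's start, rat assembly GRCr8) were held for 7 of the 10 genes, and those of *Cryab*, *Hspa1b* and *Hsp90aa1* were not analysed. They were searched for 2 inverted pairs of the unit, GAANNTTC and TTCNNGAA, and for alternating runs of 3 units, GAANNTTCNNGAA and TTCNNGAANNTTC. Each pair reads the same on both strands, the runs were searched in both forms, which are each other's reverse complement, and every run contains 1 of each pair. At least 1 pair was found in 6 of the 7 windows and in 15.9% of all 33469 promoters, and a run of 3 units in 4 of the 7 and in 0.798% of all. Among the 74 windows of other chaperone genes, 18 held a pair (24.3%) and 3 a run (4.05%). The windows shown are those of *Dnaja1*, whose ratio was above 0 over wt and which holds a run just after its start, of *Hspa8*, whose ratios stayed near 0 and whose window holds 2 runs, and of *Ppid*, whose 2 ratios lay on opposite sides of 0 and whose window holds no match. They were picked with these ratios known, and a link between matches and ratios was not tested. Capitals mark the matches.
Dnaja1 (chr5:60638154-60638453, plus strand): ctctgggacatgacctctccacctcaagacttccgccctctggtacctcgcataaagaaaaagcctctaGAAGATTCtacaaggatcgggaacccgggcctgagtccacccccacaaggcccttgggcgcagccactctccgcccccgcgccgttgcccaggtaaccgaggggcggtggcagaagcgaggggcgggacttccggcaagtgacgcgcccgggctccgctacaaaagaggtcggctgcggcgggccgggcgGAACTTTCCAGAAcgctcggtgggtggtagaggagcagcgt
Hspa8 (chr8:50080264-50080563, plus strand): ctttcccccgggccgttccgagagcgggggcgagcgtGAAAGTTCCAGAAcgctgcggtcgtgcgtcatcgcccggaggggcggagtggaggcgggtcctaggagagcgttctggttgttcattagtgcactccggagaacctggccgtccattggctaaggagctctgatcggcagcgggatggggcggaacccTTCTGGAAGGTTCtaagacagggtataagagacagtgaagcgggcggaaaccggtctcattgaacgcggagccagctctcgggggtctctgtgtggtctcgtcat
Ppid (chr2:167025735-167026034, plus strand): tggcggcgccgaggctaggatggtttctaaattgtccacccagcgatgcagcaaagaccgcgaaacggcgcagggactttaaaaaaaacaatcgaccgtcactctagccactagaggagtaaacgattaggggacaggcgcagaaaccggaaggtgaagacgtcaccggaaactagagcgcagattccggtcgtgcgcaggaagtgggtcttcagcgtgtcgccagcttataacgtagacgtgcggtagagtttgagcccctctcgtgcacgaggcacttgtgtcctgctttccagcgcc
The run of *Hsph1*, TTCTGGAAAGTTC, began 36 bases before the start. In *Hspd1* a run began 242 bases before the start, TTCCGGAAGGTTC, and overlapped a run in the other form, GAAGGTTCTAGAA. *Hspb1* held 2 separate pairs, GAAGTTTC and GAACCTTC, and *Hspb8* 1 pair, GAAGTTTC, with no run in either. A match is a string of letters in this window and not a measured binding site.

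The members differed in size and sign. Over wt, 3 of the 9 measured members had every probe past the threshold. *Dnaja1* and *Ppid* were higher, beside 7.26% of all named genes, and *Cryab* was lower, beside 9.45%. Over siScramble *Cryab* alone had every probe past it, lower, beside 1.31% of genes called lower and 1.67% called higher. Counted by single probes, 6 of 19 passed over wt, against 15.3% of all 41012 probes, and 3 of 19 over siScramble, against 2.11%. The median log2 ratio of the 9 members was 0.03 over wt, with all named genes at -0.01, and -0.08 over siScramble, with all named genes at 0.00. In the plot of every probe, 12 of the 19 probes had a mean within 0.13 of 0 over wt, and 16 of 19 within 0.175 of 0 over siScramble.

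**Figure D1:**
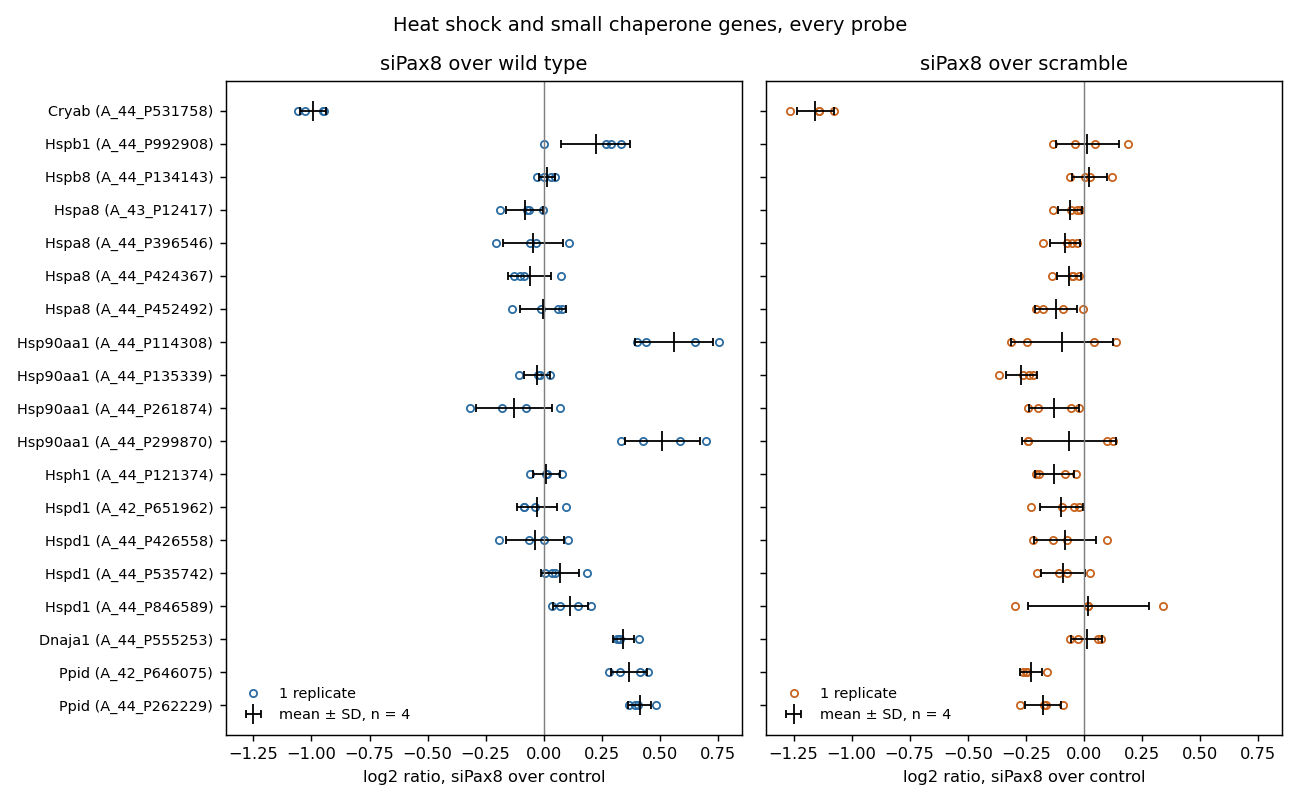
Log2 ratio of si*Pax8* over wt cells (left) and over siScramble cells (right) for the 19 probes of the 9 measured genes, one row per probe. Open circles are the 4 replicates (dye swap averaged) and black marks the mean ± SD. *Cryab* lies near -1 in both panels, 2 of the 4 *Hsp90aa1* probes and those of *Dnaja1* and *Ppid* lie above 0 over wt, and the *Ppid* probes lie below 0 over siScramble.

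*Cryab*, which encodes alphaB-crystallin, a small heat shock protein abundant in lens and muscle, had a much lower signal than either control. Its log2 ratio over wt was -1.06, -0.95, -0.95 and -1.03 in replicates 1 to 4, and over siScramble -1.08, -1.14, -1.14 and -1.27. All 8 values lay well below 0 and close together. The means were -0.995 ± 0.056 over wt and -1.16 ± 0.08 over siScramble (SD, n = 4 each), which corresponds to 50.2% and 44.9% of the control signal. Over siScramble this was the lowest mean ratio of all 41012 probes, and over wt 42 probes were lower. The probe was above background in both channels of all 16 arrays and saturated on none. Its means stayed between -1.12 and -0.88 over wt and between -1.26 and -1.06 over siScramble when each dye orientation was taken alone, and between -1.05 and -0.94 and between -1.24 and -1.11 within single slides.

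Of the other small heat shock genes of the set, *Hspb1* did not share this and *Hspb8* could not be measured. *Hspb1*, which encodes Hsp27, a regulator of actin filaments as well as a chaperone, was measured by 1 probe spotted 10 times per array. Its log2 ratio over wt was 0.00, 0.27, 0.29 and 0.33, a mean of 0.22 ± 0.15 (SD, n = 4), and over siScramble -0.13, -0.04, 0.19 and 0.05, a mean of 0.02 ± 0.14 (SD, n = 4). Replicate 1 was the lowest in both comparisons. The value depended on the dye, since the means were 0.43 over wt and 0.26 over siScramble on the arrays with si*Pax8* labelled in Cy5 but 0.02 and -0.23 on the dye-swapped arrays, and 12 of its spots over all arrays had been marked as outliers and were left out. The probe of *Hspb8*, which encodes Hsp22, the partner of Bag3 in selective autophagy, was not well above background in either channel on any array, so its ratios, between -0.06 and 0.12 over the 8 values, do not measure a change.

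Among the 5 named genes whose 8 ratios lay nearest to those of *Cryab*, by Euclidean distance over the 8 replicate values, were *Pcp4*, *Aspg*, *Gja4* and *Rbm4b*. *Pcp4*, which encodes a small calmodulin-binding peptide, was the closest, at a distance of 0.48, with means of -0.95 over wt and -0.97 over siScramble. *Aspg*, *Gja4* and *Rbm4b* were at 0.932 to 0.935. None of these encodes a heat shock protein. With 9 members and 53 other chaperone genes among 8899 named genes, that absence carries no weight.

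Of the members that belong to the Hsp70 system, *Hspa8* and *Hsph1* stayed near 0 over wt and *Dnaja1* lay above 0. *Hspa8* encodes Hsc70, the constitutive cytosolic Hsp70, and had 4 probes. Their means ran from -0.08 to 0.00 over wt and from -0.12 to -0.06 over siScramble, with SDs of 0.05 to 0.13 (n = 4), and the replicate farthest from 0 in any of them was at -0.21. For 2 of these probes the sign over wt and over siScramble followed the dye, for example -0.25 in Cy3 and 0.08 in Cy5 over wt for probe A_43_P12417. *Hsph1*, which encodes Hsp110, an exchange factor of Hsp70 that also prevents aggregation, had log2 ratios of -0.06, 0.08, 0.01 and 0.01 over wt and of -0.08, -0.03, -0.21 and -0.19 over siScramble. Its replicates straddled 0 over wt and all lay below it over siScramble, with means of 0.01 ± 0.06 and -0.13 ± 0.08 (SD, n = 4).

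*Dnaja1* encodes an Hsp40, a J-domain protein that hands clients to Hsp70. Its log2 ratio over wt was 0.33, 0.32, 0.41 and 0.32, a mean of 0.34 ± 0.04 (SD, n = 4), or 1.27 times the wt signal. Over siScramble it was 0.07, 0.06, -0.06 and -0.03, a mean of 0.01 ± 0.07 (SD, n = 4). All 4 replicates over wt lay above all 4 over siScramble, and how many of all probes did so was not counted. With the same arrays split by dye, the means were 0.26 against -0.11 when si*Pax8* was in Cy5 and 0.43 against 0.14 in Cy3. The sign over siScramble thus followed the dye. Within single slides the value ran from 0.29 to 0.37 over wt and from -0.02 to 0.07 over siScramble.

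*Hsp90aa1*, which encodes Hsp90 alpha, the stress-inducible cytosolic Hsp90, was measured by 4 probes that fell into 2 pairs. Probe A_44_P114308 gave log2 ratios over wt of 0.44, 0.65, 0.75 and 0.40, a mean of 0.56 ± 0.17, and probe A_44_P299870 gave 0.33, 0.59, 0.70 and 0.43, a mean of 0.51 ± 0.16 (SD, n = 4 each). Probe A_44_P135339 gave -0.11, 0.03, -0.01 and -0.03, a mean of -0.03 ± 0.06, and probe A_44_P261874 gave -0.08, 0.07, -0.32 and -0.18, a mean of -0.13 ± 0.16 (SD, n = 4 each). No replicate of the first pair overlapped the second pair, although all 4 probes carry the same transcript accession and all were above background on every array. The mean over the 4 probes thus describes none of them.

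Over siScramble the same pairs behaved differently again. The first pair straddled 0, with -0.25, 0.04, 0.14 and -0.31 for A_44_P114308 and -0.24, 0.13, 0.10 and -0.24 for A_44_P299870. In both probes replicates 2 and 3 were above 0 and replicates 1 and 4 below, and the same replicates were the higher ones over wt. The second pair was below 0 in all replicates, with -0.37, -0.24, -0.26 and -0.22 for A_44_P135339, a mean of -0.27 ± 0.07, and -0.24, -0.20, -0.02 and -0.05 for A_44_P261874, a mean of -0.13 ± 0.11 (SD, n = 4 each). The positions of the probes in the transcript are not given in the sources used here. *Hsp90ab1*, the constitutive paralog, was looked at after these values were seen. Its 2 probes both had means above 0 over wt but differed in size, with 0.18 ± 0.19 (limma adjusted p = 0.065) and 0.40 ± 0.05 (limma adjusted p = 2e-05; SD, n = 4 each). They lay farthest apart in replicate 1, at -0.10 and 0.38, with 0.24 to 0.30 and 0.37 to 0.48 in the other replicates. Over siScramble the means were -0.04 and 0.04.

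**Figure D2:**
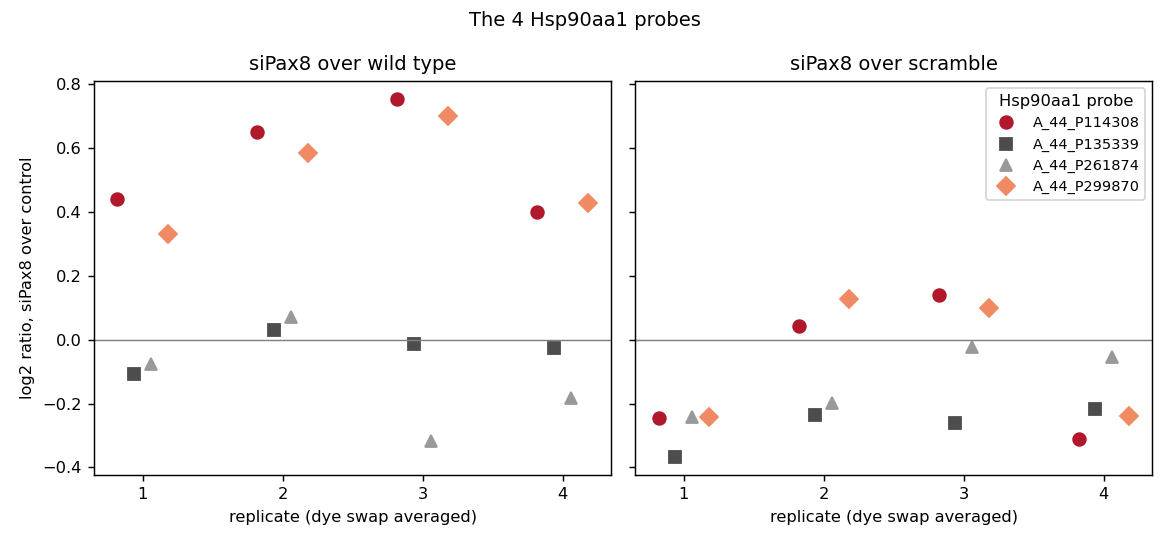
Log2 ratio of si*Pax8* over wt cells (left) and over siScramble cells (right) for each of the 4 *Hsp90aa1* probes in the 4 replicates (dye swap averaged). Over wt the probes A_44_P114308 and A_44_P299870 lie between 0.33 and 0.75 and the other two between -0.32 and 0.07, and over siScramble the first pair is above 0 in replicates 2 and 3 only.

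*Ppid* encodes a cyclophilin with tetratricopeptide repeats that binds Hsp90 in steroid receptor complexes, and its 2 probes behaved alike. Probe A_42_P646075 gave log2 ratios over wt of 0.45, 0.33, 0.41 and 0.28, a mean of 0.37 ± 0.08, and probe A_44_P262229 gave 0.48, 0.39, 0.41 and 0.37, a mean of 0.41 ± 0.05 (SD, n = 4 each). Over siScramble the first gave -0.25, -0.24, -0.26 and -0.16, a mean of -0.23 ± 0.05, and the second -0.28, -0.17, -0.09 and -0.17, a mean of -0.17 ± 0.08 (SD, n = 4 each). Every replicate of both probes was thus above wt and below siScramble. In linear terms the si*Pax8* signal was 1.29 and 1.33 times that of wt and 0.854 and 0.886 times that of siScramble. The difference between the ratios, 0.60 and 0.59, was larger than either ratio alone. No test is given for it, because both ratios were used to choose the gene.

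The ratios of *Ppid* also carried a dye component, which the dye swap averages. Over wt the means of the probes were 0.20 and 0.25 on the arrays where si*Pax8* was labelled in Cy5 and 0.54 and 0.57 on the dye-swapped arrays. Over siScramble they were -0.42 and -0.35 in Cy5 but -0.03 and 0.00 in Cy3, so that the values below siScramble lay in one orientation. Within each orientation every array over wt lay above every array over siScramble, and how many of all probes did so was not counted. *Cryab* and *Dnaja1* showed a shift of the same sign between orientations and *Hspb1* one of the opposite sign, as the plot of single arrays shows.

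**Figure D3:**
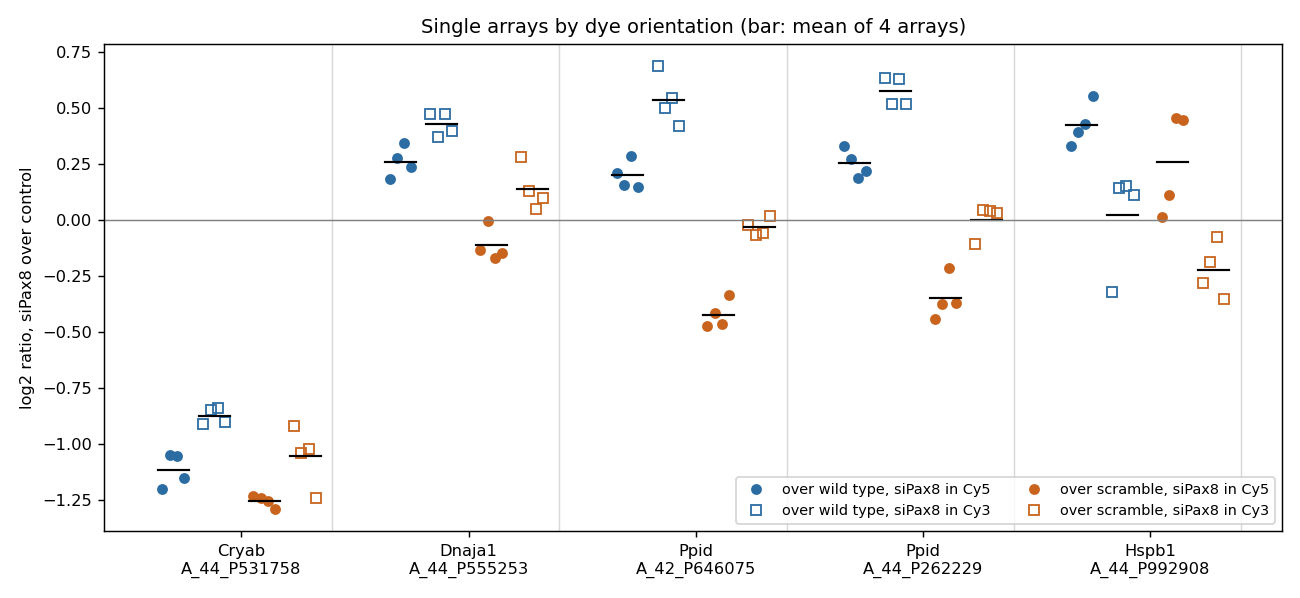
Log2 ratio of si*Pax8* over control on each single array for 5 probes, by comparison (blue, over wt; orange, over siScramble) and by the dye of the si*Pax8* sample (filled circles, Cy5; open squares, Cy3), with bars at the mean of 4 arrays. *Ppid* over siScramble is near 0 in Cy3 and near -0.4 in Cy5, while *Cryab* stays far below 0 on all arrays.

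The named genes with ratios most like those of *Ppid* by the same distance were found for each probe. For A_42_P646075 they were *Hrk*, *Cck*, *Stc2*, *Cep83* and *Tpm3*, at distances of 0.218 to 0.361, and for A_44_P262229 they were *Cck*, *Hrk*, *Lap3*, *Thoc1* and *Stc2*, at 0.218 to 0.297. *Cck*, the gene of the peptide hormone cholecystokinin, had means of 0.36 over wt and -0.17 over siScramble, and *Hrk*, which encodes a pro-apoptotic BH3-only protein, had 0.30 and -0.18. No other chaperone gene was among them, which carries no weight, since only 53 of the 8899 named genes were other chaperone genes.

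*Hspd1* encodes Hsp60, the mitochondrial chaperonin. Its 4 probes had means from -0.04 to 0.11 over wt and from -0.10 to 0.02 over siScramble. The SDs were 0.08 to 0.12 over wt and 0.09 to 0.26 over siScramble (n = 4), and only A_44_P846589 over wt (0.11 ± 0.08) and A_42_P651962 over siScramble (-0.10 ± 0.09) had a mean larger than its SD. Probe A_44_P846589 was the least steady, with -0.30, 0.02, 0.02 and 0.34 over siScramble. *Hspe1*, the gene of its co-chaperonin Hsp10, is described with the other chaperone genes below.

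The other chaperone genes were taken from lists of the same families, 89 genes of which 53 had a named probe. Over wt, 8 of the 53 had every probe past the threshold, 1 higher and 7 lower, beside 7.26% and 9.45% of all named genes. Over siScramble none was higher and 2 were lower, beside 1.67% and 1.31%. At an unadjusted p under 0.05 in limma, 5 were higher and 19 lower over wt, beside 14.9% and 19.1% of all named genes, and 0 higher and 17 lower over siScramble, beside 9.96% and 13.1%. Their median log2 ratio was -0.05 in each comparison, with all named genes at -0.01 and 0.00. Values below 0 were found for 32 of 53 genes over wt (60.4%, beside 53.5% of all named genes) and for 41 of 53 over siScramble (77.4%, beside 52.9%), with the lowest gene at -0.30 and -0.28. Leaving out replicate 2, 3 or 4 lowered the count over wt to 3, 2 and 3, and leaving out replicate 1 raised it to 10. Leaving out any replicate lowered the count over siScramble to 0. The counts over all named genes moved the same way. Over wt 841 were called lower, and 900, 572, 474 and 526 without replicates 1, 2, 3 and 4. Those called higher were 646, and 740, 461, 408 and 467. Over siScramble the lower ones fell from 117 to 44, 18, 27 and 43, and the higher ones from 149 to 78, 26, 45 and 82. Only *Hspbp1* and *Trap1* of the genes named next passed over wt whichever replicate was left out.

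The only gene called higher over wt was *St13*, which encodes Hip, a co-chaperone of Hsp70. Its mean over both probes was 0.39, 0.20, 0.31 and 0.12 in replicates 1 to 4, 0.26 ± 0.12 (SD, n = 4; largest limma adjusted p = 0.00282), and over siScramble -0.04 ± 0.11 (SD, n = 4; limma adjusted p = 0.844). The call was lost with the 2 arrays of a replicate entered singly and blocked (limma adjusted p = 0.0218) and with the slide as the block (limma adjusted p = 0.00536), and the value was 0.11 on the Cy5-labelled si*Pax8* arrays and 0.40 on the dye-swapped ones. Among the co-chaperones called lower over wt, *Hspbp1*, an exchange factor of Hsp70, was -0.30 ± 0.05 (limma adjusted p = 0.000118), and *Stip1*, which encodes Hop, the adaptor between Hsp70 and Hsp90, was -0.26 ± 0.11 (limma adjusted p = 0.00185; SD, n = 4 each). These genes had means of -0.11 and -0.12 over siScramble and did not pass there.

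In the Hsp70 and Hsp90 families, *Hspa4*, an Hsp110-type exchange factor, was -0.29 ± 0.14 over wt (largest limma adjusted p = 0.00403), a call that was lost when both comparisons were fitted together (limma adjusted p = 0.0331), and over siScramble its 2 probes disagreed at -0.14 and 0.20. *Trap1*, the mitochondrial Hsp90, was -0.25 ± 0.07 over wt (limma adjusted p = 0.00056) and -0.05 ± 0.06 over siScramble (SD, n = 4 each). *Hspa1a*, a stress-inducible Hsp70 gene that heat shock raises steeply, was not well above background on any array with either of its 2 probes, and its ratios do not measure a change. The same held for 4 other genes of the lists, *Hspb2*, *Hspb3*, *Hspa1l* and *Dnajc27*. *Dnaja4*, a J-domain protein and the only one of the 53 that passed in both comparisons, fell over wt to -0.23 ± 0.11 (limma adjusted p = 0.00317) and over siScramble to -0.28 ± 0.07 (limma adjusted p = 0.0034; SD, n = 4 each). All of its 8 replicate values were below 0, which set it apart in sign from *Dnaja1* over wt. The call of *Dnaja4* over wt was lost without replicate 3 (limma adjusted p = 0.027) or replicate 4 (limma adjusted p = 0.019). It was also lost with si*Pax8* in Cy5 alone (limma adjusted p = 0.0248) and in Cy3 alone (limma adjusted p = 0.0112). Over siScramble the call was lost whichever replicate was left out. The cyclophilin genes called were *Ppif*, of the mitochondrial cyclophilin D, over wt at -0.17 ± 0.06 (limma adjusted p = 0.00405) and *Ppil3* over siScramble at -0.22 ± 0.03 (limma adjusted p = 0.00354; SD, n = 4 each). The call of *Ppif* was lost with the replicate block (limma adjusted p = 0.131), the slide block (limma adjusted p = 0.0566) and the joint fit (limma adjusted p = 0.0406), and its value over wt was 0.0949 when only the arrays with si*Pax8* in Cy3 were taken.

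None of the 4 small heat shock proteins outside the set and none of the 7 chaperonin genes passed in either comparison. Of these small heat shock proteins only *Hspb6* was measured throughout, at -0.08 over wt and -0.06 over siScramble (limma adjusted p = 0.334 and 0.34), since *Hspb2* and *Hspb3* were not above background and the lens gene *Cryaa*, the closest relative of *Cryab*, was above it on 3 of 16 arrays. At an unadjusted p under 0.05, 1 chaperonin gene was higher and 2 were lower over wt, beside 14.9% and 19.1% of all named genes, with 0 higher and 5 lower over siScramble, beside 9.96% and 13.1%. The 7 chaperonin genes had medians of 0.04 over wt and -0.12 over siScramble. All 7 were below 0 over siScramble, beside 77.4% of the 53 other chaperone genes and 52.9% of all named genes. Of the heat shock factors, *Hsf1* had no named probe, and *Hsf2* was 0.06 ± 0.05 over wt (largest limma adjusted p = 0.623) and -0.12 ± 0.10 over siScramble (largest limma adjusted p = 0.314; SD, n = 4 each). No gene of these lists had probes that passed in opposite directions.

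Whether the ratio over wt differed from that over siScramble was tested for the other chaperone genes, as 2 groups of 4 values. Of the 53 genes, 1 passed, beside 1.78% of all named genes with a higher and 2.79% with a lower ratio over wt. It was *Hspe1*, which was named after its value was seen. Its log2 ratio over wt was 0.28, 0.10, 0.16 and 0.13, and over siScramble -0.13, -0.14, -0.12 and -0.13, so that the replicates did not overlap. The difference was 0.30 (limma adjusted p = 0.00145), while neither comparison passed alone, with 0.17 ± 0.08 over wt (limma adjusted p = 0.00707) and -0.13 ± 0.01 over siScramble (limma adjusted p = 0.0197; SD, n = 4 each). The call of the difference was lost without replicate 2, 3 or 4. With the replicate block or the slide block *Hspe1* also passed over wt. In these fits the 8 arrays were entered singly, with consensus correlations within blocks of -0.124 and -0.317. A correlation below 0 makes the error of the mean smaller than for 8 independent arrays, while there were 4 replicates. The difference between the comparisons was 0.33 for *Dnaja1* and 0.59 for the mean of the *Ppid* probes, given as values only.

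**Figure D4:**
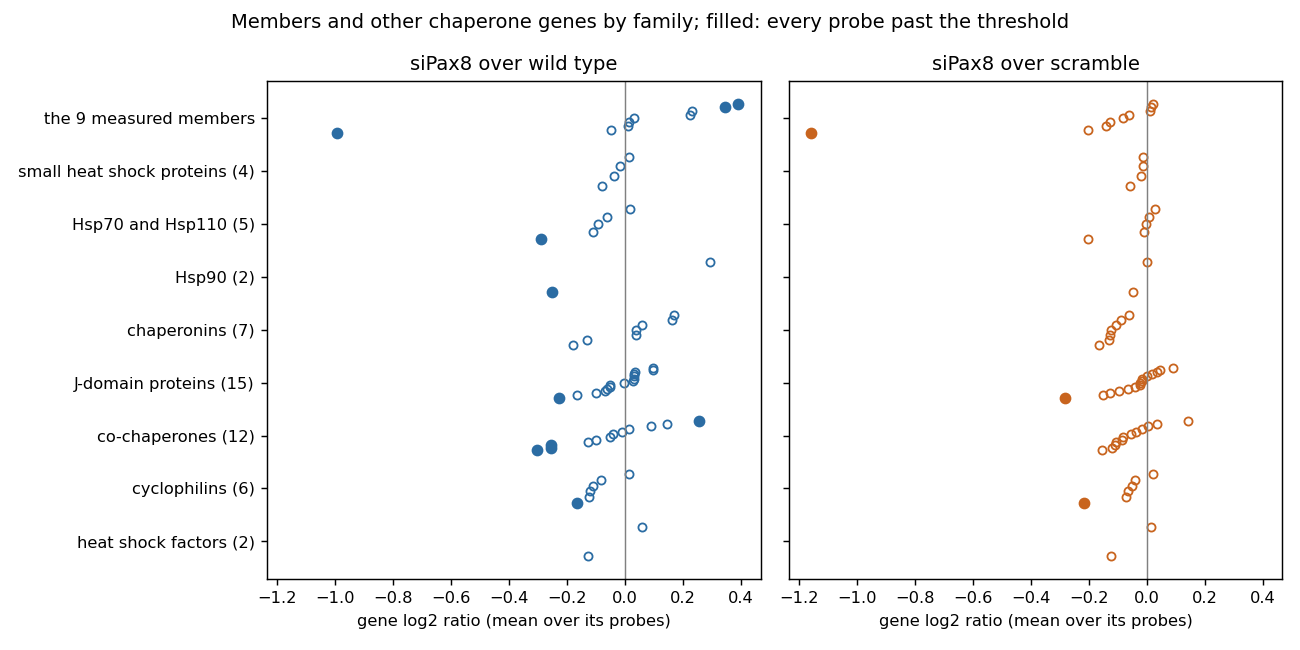
Log2 ratio of si*Pax8* over wt cells (left) and over siScramble cells (right) per gene (mean over its probes), for the 9 measured members and for 53 other chaperone genes by family, with the number of genes in parentheses. Filled points are genes with every probe past the adjusted p threshold of 0.005. *Cryab* stands alone near -1 in both panels. The 7 chaperonin genes lie below 0 over siScramble, as do 52.9% of all named genes.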

How the data were processed

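The members and the gene lists were chosen with earlier results of these data known. For each of 16 arrays the authors deposited spot intensity values (mean signal, local median background) and, per the file headers, log10 ratios of Cy5 over Cy3, which served only to find the direction of a deposited table. That table, which the authors made with limma, holds log2 ratios of control over si*Pax8*, with column medians of -7e-04 to 0.0083. The authors' methods name loess, quantile normalization, limma and an adjusted p under 0.005, and the background method is not given in the sources used here.

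The limma package (3.58.1, with statmod 1.5.0, under R 4.3.3) was used for normexp with an offset of 50, loess within arrays (weight 0 for control and outlier spots) and quantile normalization. Spots of one probe (outliers left out), then the arrays of a dye swap, were averaged as log2 ratios, giving 4 values per comparison. Each comparison was fitted with lmFit and eBayes, with Benjamini-Hochberg adjustment across all 41012 probes. Probes were named by RefSeq accession (GRCr8, names only): 10768 probes, 8899 genes. A gene's value is the mean of its probes, and a gene was called when every probe passed in one direction.

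Named were all members and *Pax8*, and of the other chaperone genes up to 8 higher and 8 lower per comparison, any split between directions, *Hsf1* and *Hsf2*, and the 5 genes nearest to *Cryab* and *Ppid*. Same-numbered arrays of opposite dye deviated together, with r of 0.119 to 0.58 over probes with mean log2 intensity above 8. Between comparisons r was 0.0444 to 0.566, a range that overlaps the first. Replicate 2 between dyes over wt and replicate 3 between comparisons matched another number better than their own. Pairing between comparisons was used as an alternative only. Other alternatives were background, normalization and filter choices, dye and slide terms, single dye orientations, and each replicate left out. Some genes that this rule names are not reported here.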

Additional observations from a re-analysis of the deposited data

Results flagged for a closer look

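Replicate 3 of *Dnaja1* over wt, at a log2 ratio of 0.41, lay apart from the other replicates, which were at 0.32 to 0.33. Of 38 sets of 4 replicates examined (19 probes in 2 comparisons) this was the only one flagged, and chance flags about 1 in 20.

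Both *Ppid* probes were above 0 in all 4 replicates over wt and below 0 in all 4 over siScramble, with the dye swap averaged. With si*Pax8* in Cy3 their means over siScramble were -0.03 and 0.00, and in Cy5 -0.42 and -0.35. The differences between the ratios were 0.60 for A_42_P646075 and 0.59 for A_44_P262229, and they were not tested.

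*Hspe1* had a log2 ratio 0.30 higher over wt than over siScramble (limma adjusted p = 0.00145), with the replicates of the comparisons on opposite sides of 0.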

How the results depend on the processing

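Of 17 alternatives, 10 to 12 moved the value of *Cryab* or *Ppid*, or of *Dnaja1* over wt, by more than 0.001, while the others mostly leave the mean as it is by construction. None turned the signs of these gene means, with ranges of -1.12 to -0.88 and -1.26 to -1.06 for *Cryab*, 0.23 to 0.56 and -0.39 to -0.02 for *Ppid*, and 0.26 to 0.43 for *Dnaja1*. With si*Pax8* in Cy3 the single *Ppid* probes stood at -0.03 and 8e-04 over siScramble. *Hsp90aa1* over wt was -0.13 when its brightest probe stood for the gene. Members past the threshold numbered 3 over wt and 1 over siScramble, but 1 and 0 with Agilent's processed signals, where limma passed 1304 and 11 probes in all against 6258 and 867. Over siScramble they numbered 2 with a dye term and 2 at an adjusted p under 0.05. The fit with a dye term counts the 2 arrays of a replicate as independent. Other chaperone genes past the threshold over wt numbered 8, but 0 with the processed signals (12 at an unadjusted p under 0.05), 13 with si*Pax8* in Cy5 alone, 2 in Cy3 alone and 15 at an adjusted p under 0.05. Limma passed 6965, 4079, 3364 and 4019 probes in all without replicates 1, 2, 3 and 4 in turn. Other chaperone genes then numbered 10, 3, 2 and 3. Over siScramble they numbered 2, but 0 with the processed signals, with loess only and with Cy5 alone (10, 16 and 15 at an unadjusted p), 1 without background correction, with an offset of 16 or without dim probes, 4 with Cy3 alone, 5 with a dye term and 5 with a slide block, and 6 at an adjusted p under 0.05. Leaving out any replicate gave 0 (14 to 17 at an unadjusted p), where limma passed 119 to 416 probes in all. The difference between the comparisons passed in 1 gene, and in 0 to 1 without 1 replicate (10 to 15 at an unadjusted p). With the replicate block the counts were 3 and 1 for members, 8 and 3 for other chaperone genes, and 1 for the difference. Of those 8 genes, 6 were shared with the unblocked fit, with *St13* and *Ppif* lost and *Hspe1* and *Hsbp1* gained. *Ppif* over wt turned to 0.0949 in Cy3 alone. The causes were not tested.

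Precision is limited by the 4 replicates, and for *Hspb8* by a signal that was not above background.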
